A study of Mus musculus with 29 samples.

Results

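The mitochondrial ribosomal protein genes were 76 of the 23366 genes in the deposited count tables. They were chosen by symbol alone: Mrpl or Mrps, a number and at most 1 further letter. By symbol, 47 belonged to the large subunit of the mitochondrial ribosome and 29 to the small subunit. Grouped by number, 45 count as counterparts of bacterial ribosomal proteins: those numbered within the bacterial series, and Mrps24, whose bacterial counterpart has another number. The other 31 are numbered above that series and count as lacking a bacterial counterpart. Apart from Mrps24, this rule misses counterparts that carry another number, so the 31 may include some. The symbols are partly historical: the products of Mrps18a and Mrps30 sit in the large subunit, and that of Mrps36 is now placed in a dehydrogenase complex of the tricarboxylic acid cycle. All 76 genes passed the filter on low counts in every comparison, and none had a count of 0 in any library.

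The mitochondrial ribosome translates the few messages of mitochondrial DNA, which encode core subunits of the respiratory chain and of ATP synthase. Its RNA comes from mitochondrial DNA, while all its proteins are encoded in the nucleus, made on cytosolic ribosomes and imported. Blood stem cells are known for keeping respiration low while they rest, and the mitochondrial ribosome is needed as progenitors grow and divide.

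RNA was measured in Lin-cKit+Sca1+ bone marrow cells, the compartment of blood stem cells and multipotent progenitors, split by sorting on CD150, a surface receptor of the SLAM family, into CD150- and CD150+ cells. The mice were C57BL/6 animals of 8 to 12 weeks. Mysm1 encodes a histone H2A deubiquitinase, and Puma, the gene Bbc3, a protein that promotes cell death. Each genotype had 3 libraries from CD150- cells: Mysm1-/-Puma-/-, Mysm1-/-Puma+/-, Mysm1+/+Puma-/- (here Puma-/-) and wild type. From CD150+ cells there were 7 libraries of Mysm1-/-Puma-/-, 4 of Mysm1-/-Puma+/-, 2 of Puma-/- and 4 of wild type. Of the CD150+ libraries, 3 of the 7 Mysm1-/-Puma-/- libraries (P1 to P3) and 1 of the 4 wild-type libraries (W1) carry name prefixes other than those of the rest of their genotype, and the labels do not say how they differ. No group lacked Mysm1 and kept both Puma copies, so a difference between Mysm1-/-Puma+/- and wild type also holds the loss of 1 Puma copy. Males and females were pooled, per the labels, which do not tie a library to an animal. The p-values therefore rest on the variation among libraries, part of which may be technical.

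Total counts ran from 28066870 to 54339749 in CD150- and from 12304713 to 35034318 in CD150+ libraries, and the 76 genes took 0.218% to 0.302% of them. The lowest count of any of the 76 genes in a library was 57. Levels are CPM, read counts relative to library size, scaled by TMM over all 29 libraries. Slamf1, which encodes CD150, lay between 0.218 and 2.30 CPM in CD150- and between 11 and 30.4 CPM in CD150+ libraries. Whole-gene counts did not check the labels: the libraries labelled Mysm1-/- held 66.4 to 122 CPM of Mysm1 and the others 85.3 to 132, and the labels do not say which exons are lacking. Against wild type, Mysm1 stood at -0.57 on the log2 scale in CD150- and in CD150+ Mysm1-/-Puma-/- cells (adjusted p = 0.0557 and 0.0198 by edgeR). In Mysm1-/-Puma+/- cells it stood at -0.03 and -0.19 (0.972 and 0.668). Mysm1-/-Puma-/- against Mysm1-/-Puma+/- cells gave -0.53 in CD150- (0.0748) and -0.38 in CD150+ cells. Bbc3 lay between 15.9 and 45 CPM in libraries labelled Mysm1-/-, with or without the Puma-/- label, and between 2.29 and 7.78 CPM in the others. The summed level of 1471 olfactory, vomeronasal and taste receptor genes, which blood cells should not use, ran from 622 to 9003 CPM. It was over 1.5 times its population's median in CD150- Mysm1-/-Puma-/- replicate B1 and in CD150+ replicates B5 (Mysm1-/-Puma-/-), C2-5 (Puma-/-) and D2 (wild type).

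The promoters of the genes on which the results turn are shown first, so that shared and differing letters can be seen. RefSeq holds a promoter of 67 of the 76 genes, from 250 bases before to 50 bases after the transcription start (73 windows, build GRCm38.p6). Motifs of 3 kinds of factor were searched on both strands: CCGGAAG (or CTTCCGG), a core bound by ETS factors, AAGATGGC (or GCCATCTT), a core bound by YY1, and the full palindrome bound by NRF1, a regulator of nuclear genes for mitochondrial proteins. Capitals mark these matches, and each sequence runs 5′ to 3′ on the gene's strand, whose last 50 bases are transcribed. Mrps18a (chr17:46110754-46111053, plus strand) and Mrps27 (chr13:99344536-99344835, plus strand) each hold an ETS and a YY1 match, and Mrpl52 (chr14:54426659-54426958, plus strand) holds a pair of ETS matches.
Mrps18a: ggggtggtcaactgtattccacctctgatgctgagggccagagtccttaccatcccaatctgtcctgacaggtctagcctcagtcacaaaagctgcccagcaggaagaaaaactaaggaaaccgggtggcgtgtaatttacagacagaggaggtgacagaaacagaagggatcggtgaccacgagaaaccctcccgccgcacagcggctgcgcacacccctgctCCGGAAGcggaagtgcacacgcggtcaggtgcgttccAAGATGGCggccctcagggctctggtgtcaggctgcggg
Mrps27: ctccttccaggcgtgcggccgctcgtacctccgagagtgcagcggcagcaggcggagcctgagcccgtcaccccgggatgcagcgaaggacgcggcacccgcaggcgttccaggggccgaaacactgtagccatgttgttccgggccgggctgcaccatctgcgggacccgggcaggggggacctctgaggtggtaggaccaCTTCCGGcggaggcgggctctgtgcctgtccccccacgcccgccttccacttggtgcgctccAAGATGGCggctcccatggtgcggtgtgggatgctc
Mrpl52: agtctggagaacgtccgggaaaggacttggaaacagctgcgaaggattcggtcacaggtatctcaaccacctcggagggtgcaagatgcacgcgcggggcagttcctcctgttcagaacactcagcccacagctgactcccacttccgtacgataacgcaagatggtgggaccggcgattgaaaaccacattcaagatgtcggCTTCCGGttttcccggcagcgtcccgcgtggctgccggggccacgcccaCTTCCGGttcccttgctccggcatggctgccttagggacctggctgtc
Mrpl46 (chr7:78783040-78783339, minus strand), Mrpl12 (chr11:120484387-120484686, plus strand) and Mrpl24 (chr3:87919294-87919593, plus strand) hold none of these letters in their windows, which says nothing of the factors themselves. No window of Mrpl54 was matched.
Mrpl46: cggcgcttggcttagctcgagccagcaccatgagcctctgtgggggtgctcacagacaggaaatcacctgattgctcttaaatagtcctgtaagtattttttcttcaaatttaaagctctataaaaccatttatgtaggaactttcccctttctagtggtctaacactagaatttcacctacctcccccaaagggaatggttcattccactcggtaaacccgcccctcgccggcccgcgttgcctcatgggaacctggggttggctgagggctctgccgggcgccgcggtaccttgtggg
Mrpl12: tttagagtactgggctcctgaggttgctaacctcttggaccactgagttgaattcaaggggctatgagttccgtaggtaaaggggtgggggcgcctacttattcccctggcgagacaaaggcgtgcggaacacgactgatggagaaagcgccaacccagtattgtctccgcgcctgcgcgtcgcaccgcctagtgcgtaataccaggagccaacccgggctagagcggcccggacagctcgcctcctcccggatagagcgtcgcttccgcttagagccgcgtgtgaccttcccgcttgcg
Mrpl24: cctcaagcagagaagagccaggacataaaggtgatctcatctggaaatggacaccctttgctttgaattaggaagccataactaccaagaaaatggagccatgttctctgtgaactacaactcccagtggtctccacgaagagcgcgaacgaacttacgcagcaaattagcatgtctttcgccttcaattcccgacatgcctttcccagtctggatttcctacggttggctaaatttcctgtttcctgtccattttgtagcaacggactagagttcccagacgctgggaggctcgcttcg

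The ETS letters were found in 24 of the 73 windows, or 32.9%, and in 11.6% of the 21263 windows of protein-coding genes. The YY1 letters were found in 12 windows, or 16.4%, against 3.05% of protein-coding windows. The NRF1 palindrome was found in 3 windows, or 4.11%, against 1.33%. In no window did matches of different motifs overlap. In 8 of the 12 windows the YY1 match began 12 to 37 bases after the transcription start, as in Mrps18a and Mrps27, where it began at 12 and 15 bases. Of the 67 genes, 35 held at least 1 motif and 3 held both ETS and YY1 letters. These are matches of letters, not measured binding.

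Per kilobase of the deposited gene length, the 76 genes spanned from 4.46 to 131 CPM per kb, with a median of 24.4 CPM per kb against 2.05 over all 21830 genes tested. Cytosolic ribosomal protein genes had a median of 819 CPM per kb and oxidative phosphorylation subunit genes one of 59.2. The 5 highest were large-subunit genes: Mrpl52 at 131, Mrpl18 at 122, Mrpl42 at 103, Mrpl27 at 73.2 and Mrpl12 at 73.0 CPM per kb. Mrpl27 encodes a protein near the peptidyl transferase centre, and Mrpl12 the stalk protein that recruits translation factors and also binds mitochondrial RNA polymerase. The 5 lowest were Mrpl17 at 4.46, Mrps2 at 5.51, Mrps36 at 6.18, Mrpl15 at 7.29 and Mrpl19 at 7.65 CPM per kb. All of these but Mrps36 have deposited lengths of 4101 to 7884 bases, where the median of the 76 genes is 1066 bases. The 3 genes of the Mrps18 family, paralogues of 1 bacterial protein, lay at 28.6 (Mrps18a), 21.1 (Mrps18b) and 51.7 (Mrps18c) CPM per kb.

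**Figure D1:**
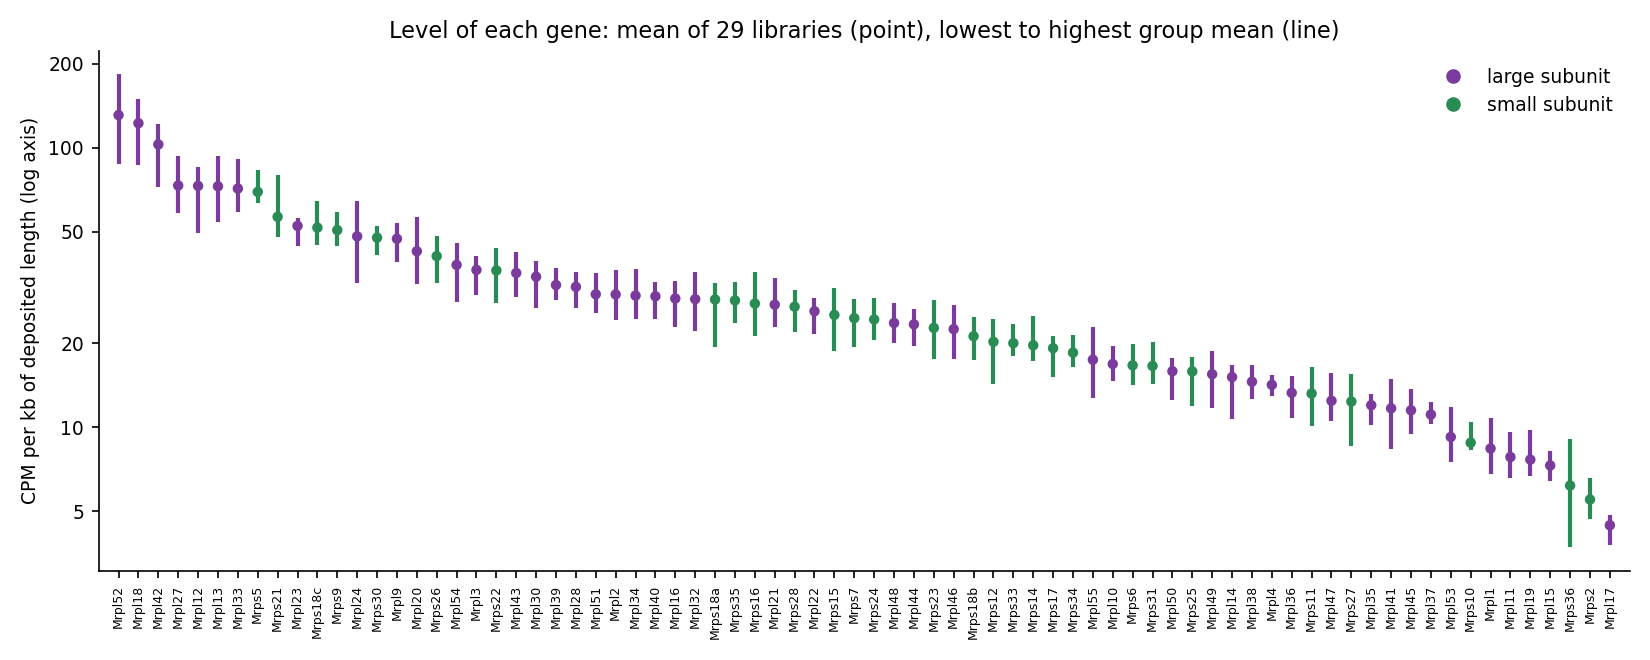
Level of each of the 76 genes in CPM per kb of deposited length, on a log axis, ranked from high to low. Points are means of the 29 libraries, lines run from the lowest to the highest of the 8 group means, and colour gives the subunit by symbol. The lines are short against the spread between genes: for 74 of 76 genes the highest group mean was under 2 times the lowest.

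Levels of a gene changed little between groups. The highest group mean was a median of 1.46 times the lowest, and over 2 times it only for Mrps36 (2.44 times) and Mrpl52 (2.09 times). Between libraries of a group, the SD of log2(CPM + 1) had a median of 0.23 over the 76 genes and of 0.32 over all genes tested. The most variable were Mrps36 (0.38), Mrps16 (0.37) and Mrps21 (0.33), and the least variable Mrpl15 (0.11), Mrpl24 (0.14) and Mrpl1 (0.15). Mrpl15 lay between 48.0 and 75.1 CPM in all 29 libraries.

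The mean of log2(CPM + 1) over the 76 genes put CD150- Mysm1-/-Puma-/- cells lowest of the 8 groups, at 4.67 ± 0.15 (SD, n = 3 libraries). Above it came CD150- Puma-/- at 4.84 ± 0.05 (n = 3), CD150- wild type at 4.87 ± 0.09 (n = 3) and CD150+ Mysm1-/-Puma-/- at 4.90 ± 0.09 (n = 7). CD150+ wild type stood at 4.99 ± 0.10 (n = 4), CD150+ Puma-/- at 5.00 ± 0.03 (n = 2), CD150- Mysm1-/-Puma+/- at 5.01 ± 0.07 (n = 3) and CD150+ Mysm1-/-Puma+/- at 5.06 ± 0.18 (n = 4). Apart from the step from the lowest group to the next, neighbours in this order differed by less than the larger of their SDs. Single genes followed the same order at its ends. CD150- Mysm1-/-Puma-/- was the lowest group for 58 of the 76 genes, and a Mysm1-/-Puma+/- group was the highest for 46, 25 of them in CD150+ and 21 in CD150- cells. The same counts over all genes are not given here, so these do not set the 76 genes apart from genes in general.

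**Figure D2:**
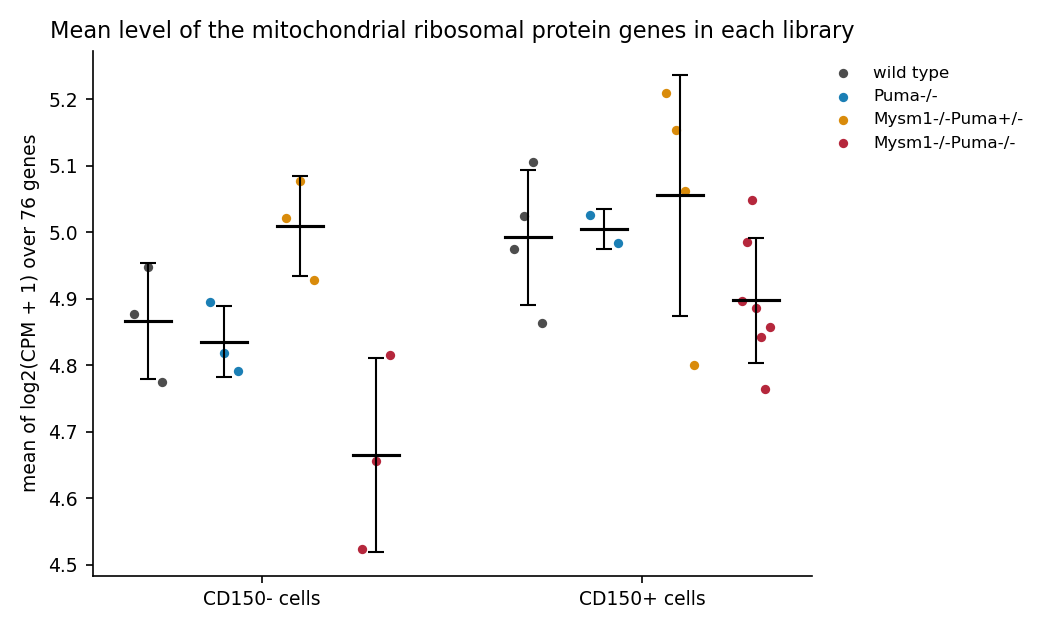
Mean of log2(CPM + 1) over the 76 genes in each library (points), by population and genotype; horizontal bars are group means and error bars SDs. The 3 CD150- Mysm1-/-Puma-/- libraries lie between 4.52 and 4.82, and the 3 CD150- Mysm1-/-Puma+/- libraries between 4.93 and 5.08.

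The first comparison asks what loss of the remaining Puma copy changed in cells without Mysm1: Mysm1-/-Puma-/- against Mysm1-/-Puma+/- cells. In CD150- cells, Mrpl46, Mrpl54 and Mrpl12 fell, and no member of the family rose. All 3 are large-subunit genes, and Mrpl46 and Mrpl54 encode proteins without a bacterial counterpart. Of all 21168 genes tested, 1.05% were called lower and 0.194% higher at an adjusted p under 0.05, and of the 11717 genes that average at least 2 on the log2 CPM scale, as all 76 do, 1.89% were called lower. A count of 3 of 76 is little above that.

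Mrpl46 (mm9 chr7:85920122-85928417, minus strand) lay at 29.5, 27.2 and 27.0 CPM in the Mysm1-/-Puma+/- libraries and at 17.2, 18 and 19.1 CPM in the Mysm1-/-Puma-/- libraries. The 2 groups did not overlap. Its log2 fold change was -0.71 ± 0.15 (SE), with an adjusted p of 0.0352 by edgeR's quasi-likelihood test. Wild-type libraries held 25.4, 25.9 and 22.9 CPM and Puma-/- libraries 22.0, 19.0 and 20.4 CPM, below Mysm1-/-Puma+/- in every library, and the lowest Puma-/- library lay just under the highest Mysm1-/-Puma-/- library. Mrpl46 starts 42 bases from the start of Mrps11, a small-subunit gene read in the opposite direction (RefSeq starts, GRCm38.p6). In the mm9 annotation their gene models share 413 bases, and the strand setting of the counting was not given in the sources used here. Mrps11 itself lay at 14.9, 14.8 and 11.5 against 8.37, 12.1 and 11.1 CPM, which overlap, with a log2 fold change of -0.46 ± 0.21 and an adjusted p of 0.266.

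Mrpl54 (mm9 chr10:80727458-80729679, minus strand) lay at 24.1, 32.4 and 23.4 CPM in Mysm1-/-Puma+/- and at 14.7, 19.6 and 15.1 CPM in Mysm1-/-Puma-/- libraries, a log2 fold change of -0.78 ± 0.18 (adjusted p = 0.0459). Its wild-type libraries held 20.6 to 22.2 CPM, so the Mysm1-/-Puma+/- group lay above and the Mysm1-/-Puma-/- group below wild type. Mrpl12 (mm9 chr11:120345927-120350379, plus strand) lay at 67.7, 96.7 and 63.2 against 40.3, 41.9 and 58.7 CPM, a log2 fold change of -0.77 ± 0.18 (adjusted p = 0.0462). Wild-type libraries held 67.6 to 75.2 CPM of Mrpl12, and Puma-/- libraries a mean of 63.5 ± 2.4 CPM (SD). The highest Mysm1-/-Puma-/- library, at 58.7 CPM, lay near these and near the lowest Mysm1-/-Puma+/- library at 63.2 CPM. Mrpl12 was not called between Mysm1-/-Puma-/- and wild type (adjusted p = 0.0694 by edgeR). The exons of Mrpl12 overlap those of Gm16755 on the other strand, and those of Mrpl54 overlap no other gene in the annotation.

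The other genes leaned the same way without passing the test. Of the 76, 74 had a log2 fold change below 0 and 51 (67.1%) an unadjusted p under 0.05 with a lower level. Over all genes tested these shares were 43.1% and 10.5%, and over the 11717 genes of like level 57.5% and 18.7%. The median log2 fold change was -0.46 over the 76 genes, 0.09 over all genes and -0.06 over genes of like level. In 36 of the 76 genes (47.4%) every Mysm1-/-Puma-/- library lay below every Mysm1-/-Puma+/- library, as it did in 9.48% of all genes. The median was -0.40 for the 47 large-subunit and -0.47 for the 29 small-subunit genes. By the grouping on numbers, it was -0.48 for genes counted as having a bacterial counterpart and -0.40 for the rest. The largest difference that did not pass was that of Mrps21 at -0.81 ± 0.25 (adjusted p = 0.0970), followed by Mrpl53 at -0.75 ± 0.27 (0.164). Mrps18a, Mrps18b and Mrps18c differed by -0.59 ± 0.19, -0.48 ± 0.19 and -0.60 ± 0.18, Mrpl41 by -0.32 ± 0.17 and Mrps30 by -0.42 ± 0.18, none past the test. The values above 0 were those of Mrpl27 (0.15 ± 0.15) and Mrpl10 (0.09 ± 0.15), whose product anchors the Mrpl12 stalk. Genes with ETS letters in their promoter had a median of -0.52 and those without one of -0.46, and genes with and without YY1 letters had medians of -0.49 and -0.47.

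**Figure D3:**
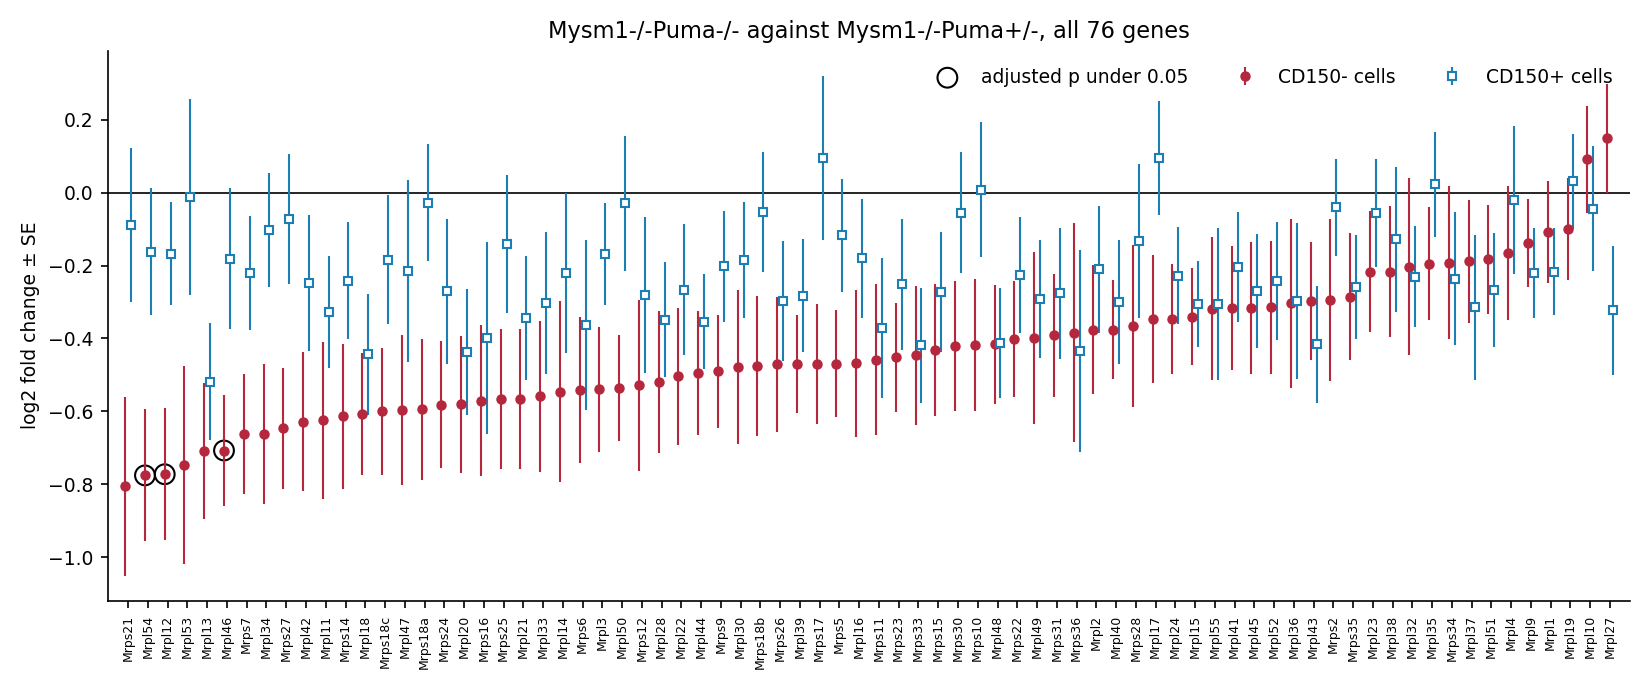
Log2 fold change ± SE of Mysm1-/-Puma-/- against Mysm1-/-Puma+/- cells for all 76 genes, ordered by the value in CD150- cells (filled circles), with the value in CD150+ cells beside it (open squares). Rings mark Mrpl46, Mrpl54 and Mrpl12; 74 filled circles and 71 squares lie below 0.

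These 3 calls were unstable. None passed in a fit with the compared groups alone, with the receptor genes' level as a covariate, with a replicate block (adjusted p = 0.173 for Mrpl46, 0.178 for Mrpl54 and 0.171 for Mrpl12 by edgeR), or without Mysm1-/-Puma+/- replicate A1 or A2 or Mysm1-/-Puma-/- replicate B1. Without replicate B3 only Mrpl54 passed. Without replicate A3 there were 14 calls, without B5 18, and with DESeq2 22, but Mrpl54 was not among the 18 (adjusted p = 0.0581). With limma-trend there were 4 calls, and Mrpl12 was not among them (0.0508). The median over the 76 genes stayed between -0.59 and -0.33 in all 13 alternatives. Replicate B1 had both the lowest mean level of the 76 genes (4.52) and the highest receptor level of the CD150- libraries (5810 CPM against 1042 to 4296 in the others), and without it the median was -0.33; the part of that background in the result was not tested.

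Other genes of mitochondrial gene expression were described in the same comparison. None was called of 7 further ribosome subunits with other symbols, 25 assembly factors, 15 translation factors, 20 aminoacyl-tRNA synthetases and 12 factors that copy or transcribe mitochondrial DNA. Their median log2 fold changes were -0.36, -0.20, -0.28, -0.22 and -0.30. Of 76 oxidative phosphorylation subunit genes, 13 fell, with a median of -0.58, among them Atp5o at -0.79 ± 0.15 (adjusted p = 0.0161), a subunit of ATP synthase, and Cox7b at -0.84 ± 0.17 (0.0282), a subunit of cytochrome c oxidase. Of 75 cytosolic ribosomal protein genes 5 fell, with a median of -0.50, among them Rpl37a (-0.60 ± 0.14, 0.0392) and Rpl41 (-0.72 ± 0.16, 0.0392). The 12 nuclear regulators of mitochondrial genes had a median of 0.03 and none was called.

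Genes of cell division were also lower in this comparison. Of 24 mitosis genes 16 fell, with a median of -0.79, and their mean log2(CPM + 1) lay between 6.23 and 6.62 in Mysm1-/-Puma+/- and between 5.58 and 5.92 in Mysm1-/-Puma-/- libraries. Ccna2, a cyclin of S phase and mitosis, fell by 1.04 on the log2 scale (adjusted p = 0.00792). The summed level of the 24 genes was 3326 to 4481 CPM against 2213 to 2838 CPM in these groups and 4698 to 5342 CPM in wild type. Their part in the result was not tested. Of the markers of other blood cells, none of 6 erythroid, 10 myeloid, 10 B-cell and 8 T-cell and NK-cell genes was called. Of 8 stromal marker genes 1 was higher, Pdgfrb, a growth factor receptor gene, by 1.11 on the log2 scale (adjusted p = 0.00792 by edgeR). In RNA from sorted cells, fewer cells of a type and less RNA per cell cannot be told apart.

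In CD150+ cells the same comparison called no gene at all in either direction (0% of 20944), and so none of the 76. An unadjusted p under 0.05 was reached by 10 of the 76 genes on the lower side (13.2%, against 2.49% of all genes and 3.96% of genes of like level) and by none on the higher side. The log2 fold change was below 0 for 71 of 76 genes, as for 48.1% of all genes and 57.6% of genes of like level, with a median of -0.23 against 0.01 over all genes, or of -0.15 without Mysm1-/-Puma+/- replicate A1. Mrpl13 had the smallest p: it lay at 95.1, 88.2, 59.5 and 49.9 CPM in Mysm1-/-Puma+/- libraries, and its lowest, median and highest values in the 7 Mysm1-/-Puma-/- libraries were 47.6, 52.0 and 62.9 CPM. The groups overlapped, and its log2 fold change was -0.52 ± 0.16 (adjusted p = 1.00 by edgeR). Mrpl48 followed at -0.41 ± 0.15. Mrpl46, Mrpl54 and Mrpl12, called in CD150- cells, stood at -0.18 ± 0.19, -0.16 ± 0.17 and -0.17 ± 0.14 here. Of the 24 mitosis genes none was called in this population, and their median was -0.60.

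The difference of the Puma effect between populations, tested as an interaction over all 29 libraries, was called for none of the 76 genes and for 0% of 21830 genes. An unadjusted p under 0.05 was reached by 6 of the 76 genes, each with the smaller loss in CD150+ cells, against 1.11% of all genes and 1.63% of genes of like level in that direction. The smallest p belonged to Mrpl12 (0.58 ± 0.22) and Mrpl34 (0.54 ± 0.22), each with an adjusted p of 1.00 by edgeR. A difference between the populations in the Puma effect was therefore not shown for any of these genes.

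**Figure D4:**
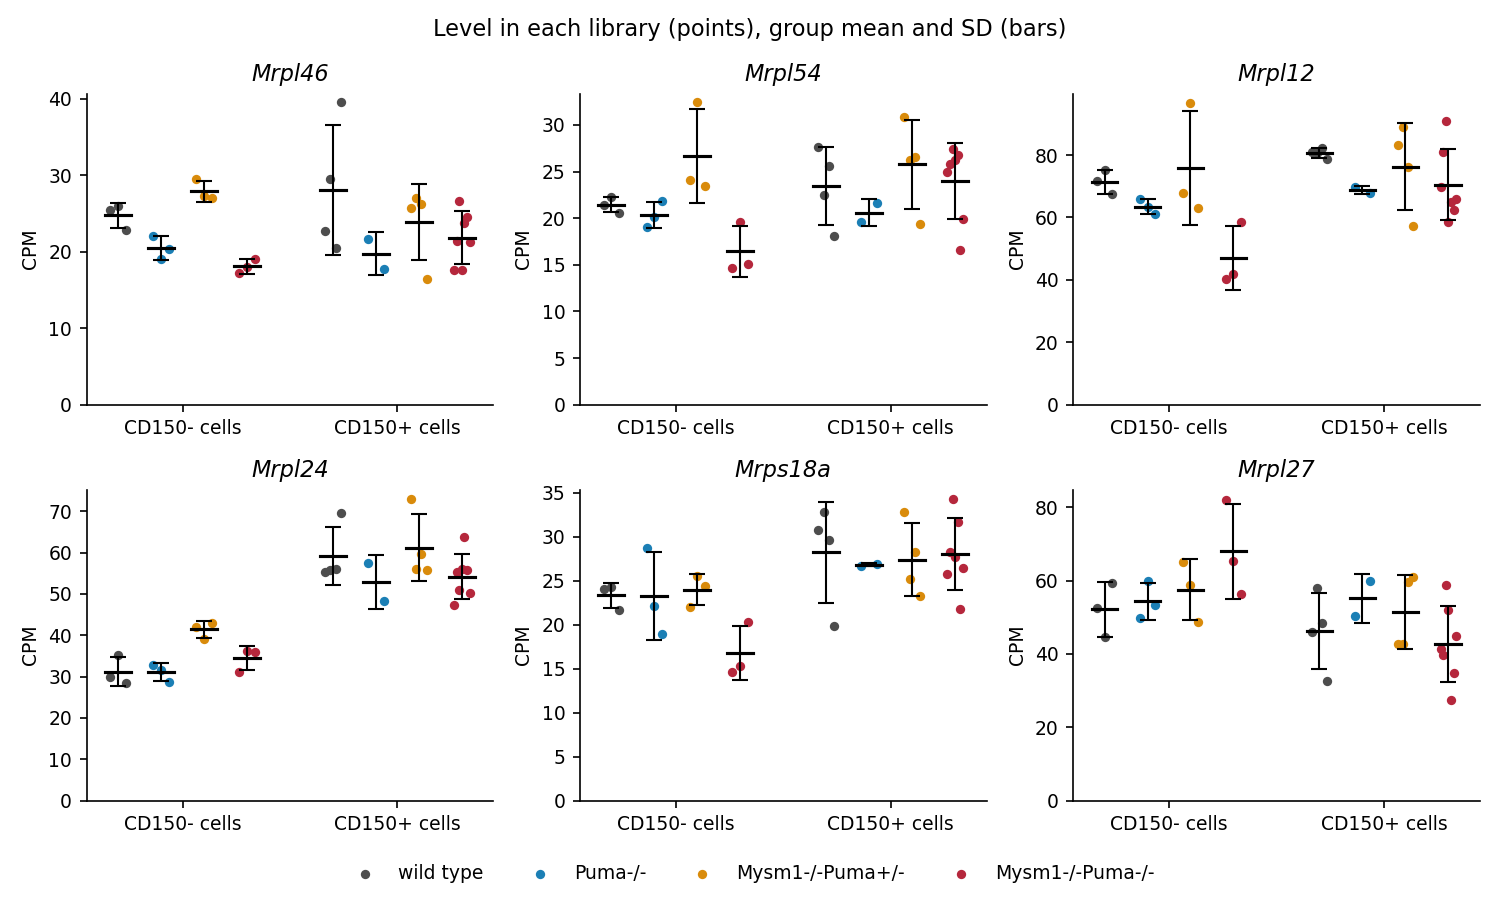
CPM of 6 genes in each library (points), with group means (long bars) and SDs (error bars), by population and genotype. Mrpl46, Mrpl54 and Mrpl12 are low in CD150- Mysm1-/-Puma-/- cells; Mrpl24 separates the populations, with at most 43.0 CPM in CD150- and at least 47.3 CPM in CD150+ libraries.

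Mysm1-/-Puma+/- against wild-type cells, the comparison closest to loss of Mysm1, called none of the 76 genes in either population. In CD150- cells 0.638% of all genes were called higher and 0.231% lower, and in CD150+ cells 0.372% and 0.0812%. The 76 genes leaned upward: 63 of 76 lay above 0 in CD150- cells with a median of 0.16, and 60 of 76 in CD150+ cells with a median of 0.15. The medians over genes of like level were 0.03 and 0.11. The mitosis genes went the other way in CD150- cells, where their summed level lay below wild type, as given above. The CD150- median of the 76 genes was 0.099 without wild-type replicate D4. The CD150+ median was 0.074 without Mysm1-/-Puma+/- replicate A1, 0.089 with DESeq2, 0.10 without the P and W libraries, 0.042 with limma-trend and 0.26 with a replicate block. An unadjusted p under 0.05 was reached on the higher side by 9 genes (11.8%) in CD150- and 5 in CD150+ cells, against 5.53% and 5.38% of all genes, and by none on the lower side. Over genes of like level these shares were 9.17% and 9.13%, so the counts are near the background. The share of genes above 0 was 44.8% and 46.1% over all genes and 54.6% and 65.4% over genes of like level. The smallest p in CD150- cells belonged to Mrpl24, at 42.1, 39.2 and 43.0 against 30.0, 35.1 and 28.4 CPM, which did not overlap (0.44 ± 0.15, adjusted p = 0.285), and to Mrps14 (0.55 ± 0.20, 0.323). In CD150+ cells it belonged to Mrpl48 (0.46 ± 0.17, 0.435) and Mrpl32 (0.37 ± 0.16, 0.516). In CD150+ cells replicate A4 held the lowest mean of the 76 genes in its group, 4.80 against 5.06 or more in the other 3. By the interaction test, a difference of the Mysm1 effect between populations was called for none of the 76 genes (0% of all genes higher, 0.00916% lower). An unadjusted p under 0.05 was reached by 1 gene, Mrps21, on the lower side (-0.75 ± 0.35, adjusted p = 1.00), and by 1.46% of all genes.

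Mysm1-/-Puma-/- cells were also set against wild-type and Puma-/- cells, comparisons that share the Mysm1-/-Puma-/- libraries with the one above. In CD150- cells none of the 76 genes was called against wild type (0.704% of all genes higher, 1.61% lower) or against Puma-/- (0.411% higher, 0.935% lower). The medians were -0.25 and -0.24. Without Mysm1-/-Puma-/- replicate B1 they were -0.14 and -0.11. The first was also -0.14 without wild-type replicate D3 and -0.39 without Mysm1-/-Puma-/- replicate B5, and the second -0.15 without Puma-/- replicate C2. Genes of cell division were lower in the same comparisons: 23 of 24 mitosis genes fell against wild type, with a median of -0.99, and 17 of 24 against Puma-/-, with a median of -0.81. Among them Ccna2 stood at -1.19 and -0.997 and Mki67, a marker of dividing cells, at -1.06 and -0.95. Their part in the result was not tested. An unadjusted p under 0.05 was reached on the lower side by 15 genes against wild type and 13 against Puma-/-, and by 7.47% and 5.99% of all genes, or 13.1% and 10.3% of genes of like level. Mrpl12 had the smallest p against wild type (-0.66 ± 0.18, adjusted p = 0.0694), then Mrps27 (-0.57 ± 0.17, 0.0926), a pentatricopeptide protein of the small subunit. Both passed with DESeq2, with limma-trend on the deposited CPM and with the receptor covariate, and over all alternatives their adjusted p ran from 0.0127 to 0.441 and from 0.0262 to 0.639. Against Puma-/- the smallest p belonged to Mrpl18 (-0.47 ± 0.17, 0.263), known to carry 5S ribosomal RNA, and to Mrps18a (-0.51 ± 0.19, 0.304). Mrps18a lay at 14.7, 15.4 and 20.3 CPM in Mysm1-/-Puma-/- and at 28.7, 22.2 and 18.9 CPM in Puma-/- libraries, which overlapped.

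In CD150+ cells Mysm1-/-Puma-/- against wild type called none of the 76 genes (0.248% of all genes higher, 0.043% lower), and against Puma-/- none (0.0907% higher, 0.0239% lower). The medians were -0.09 and -0.02, and neither kept its sign in every alternative: the first was 0.013 with a replicate block and -0.019 without wild-type replicate D3-4, and the second 0.11 without Puma-/- replicate C1-4. None of the 24 mitosis genes was called, with medians of -0.34 and -0.22. Among the 76 there was no gene against wild type (4.56% of all genes higher, 2.87% lower) and 1 gene against Puma-/-, Mrpl1 (4.85% lower), at an unadjusted p under 0.05. The members of smallest p were Mrps35 (-0.26 ± 0.14, adjusted p = 0.716) and Mrpl49 (-0.29 ± 0.16, 0.717) against wild type, and Mrpl1 (-0.35 ± 0.15, 0.492) and Mrpl52 (-0.35 ± 0.20, 0.561) against Puma-/-.

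Loss of Puma alone, Puma-/- against wild type, called no gene of any kind in either population (0% higher and lower), and none of the 76 reached an unadjusted p under 0.05. Of all genes 0.798% did so on the higher and 0.732% on the lower side in CD150- cells, and 0.735% and 0.482% in CD150+ cells. The medians were -0.03 in CD150- and -0.04 in CD150+ cells, and both turned sign with 1 library left out. The CD150- median was 0.0038 without Puma-/- replicate C5, 0.042 without wild-type replicate D3 and -0.0995 without D4. The CD150+ median was 0.037 without wild-type replicate D3-4 and -0.15 without Puma-/- replicate C1-4. The smallest p in CD150- cells belonged to Mrpl50 (-0.31 ± 0.15) and Mrpl46 (-0.29 ± 0.15), and in CD150+ cells to Mrpl46 (-0.54 ± 0.28) and Mrps26 (-0.43 ± 0.23), each with an adjusted p of 1.00 by edgeR.

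CD150+ cells, which hold more stem cells, were set against CD150- cells of the same genotype. Mrpl24 (mm9 chr3:87723428-87727594, plus strand), a large-subunit protein that binds early in assembly in bacteria, was higher in CD150+ cells in all 4 genotypes. In wild type it rose from 30.0, 35.1 and 28.4 CPM to 55.3, 55.9, 56.1 and 69.7 CPM, a log2 fold change of 0.93 ± 0.13 (adjusted p = 1.51e-05 by edgeR). The rise was 0.56 ± 0.13 in Mysm1-/-Puma+/- (adjusted p = 0.00583), 0.65 ± 0.12 in Mysm1-/-Puma-/- (0.000247) and 0.77 ± 0.15 in Puma-/- cells (0.00169). Every CD150- library lay at or below 43.0 CPM and every CD150+ library at or above 47.3 CPM. The exons of Mrpl24 overlap those of Rrnad1 on the other strand, and Rrnad1 stood at -0.43 ± 0.25, -0.60 ± 0.25, -0.90 ± 0.22 and 0.00 ± 0.30 in the same 4 comparisons, with a call only in Mysm1-/-Puma-/- cells, where it was lower (adjusted p = 0.00559). The call of Mrpl24 was lost in Mysm1-/-Puma+/- with the compared groups alone or without CD150+ replicate A1 (adjusted p up to 0.0960 by edgeR). With a replicate block, the wild-type comparison rests on D2, the only library name found in both populations, and Mrpl24 stood at 0.90. In Puma-/- without replicate C1-4, which leaves a single CD150+ library, Mrpl24 stood at 0.64. The call held in all other alternatives.

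Mrpl52, a protein without a bacterial counterpart, rose in wild type (0.62 ± 0.19, adjusted p = 0.0399), Mysm1-/-Puma+/- (0.61 ± 0.19, 0.0488) and Mysm1-/-Puma-/- cells (0.66 ± 0.17, 0.0103), and stood at 0.71 ± 0.22 (0.0573) in Puma-/- cells. In wild type its CPM went from 37.7, 47.4 and 43.7 to 64.4, 70.3, 76.3 and 53.7, without overlap. Wild-type cells called 1 more gene, Mrps22 (0.53 ± 0.17, 0.0456), a small-subunit gene, at 39.4, 38.6 and 31.9 against 42.3, 50.2, 69.6 and 50.0 CPM. Puma-/- cells called Mrpl24 and Mrpl1, a gene of the mobile stalk at the exit side of the ribosome (0.66 ± 0.16, 0.0102), at 34.6, 35.0 and 32.4 against 49.3 and 58.5 CPM. In all, wild type called 3 of 76 genes higher and none lower, where 3.09% of all genes were called higher and 4.05% lower. The Mysm1-/-Puma+/- groups called 2 higher (2.67% and 3.24%) and the Puma-/- groups 2 higher (2.29% and 2.66%), shares near the background. Medians over the 76 genes were 0.13, 0.08 and 0.13 in these 3 genotypes. The Mysm1-/-Puma+/- median turned to -0.012 without CD150+ replicate A1 and to -0.015 without CD150- replicate A3, and was 0.17 without CD150+ replicate A4. The call of Mrpl52 was lost in 9 of 16 alternatives in wild type and in 8 of 15 in Mysm1-/-Puma+/-, that of Mrps22 in 12 of 16, and that of Mrpl1 in 2 of 12. In wild type these alternatives include the replicate block, which rests on the D2 pair alone. The wild-type count was 1 without CD150+ replicate D2 or D3-4 or any of the CD150- replicates D2, D3 and D4. The Mysm1-/-Puma+/- count was 1 without CD150+ replicate A1, A3 or A4 or CD150- replicate A1 or A2, and the Puma-/- count was 1 without C1-4 or C2-5.

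Mysm1-/-Puma-/- cells called more: 10 of 76 genes higher and 2 lower. Of all genes 5.16% were called higher and 7.14% lower, and of genes of like level 9.18% and 10.5%, so the count of rises is not far from the background. The median was 0.27, against -0.07 over all genes, and 68 of 76 genes lay above 0, as did 44.9% of all genes and 55.4% of genes of like level. The largest called rise was that of Mrps18a, from 14.7, 15.4 and 20.3 CPM to a lowest, median and highest of 21.8, 27.7 and 34.3 CPM in 7 libraries, without overlap (0.74 ± 0.17, adjusted p = 0.00253). Mrps27 rose from 16.3, 16.7 and 14.5 to between 21.5 and 27.7 CPM, also without overlap (0.61 ± 0.17, 0.0129). The call of Mrps27 was lost with a replicate block (adjusted p = 0.0720 by edgeR), with the P and W libraries left out (0.0791), and without CD150- replicate B1 (0.0793) or B5 (0.0587). That of Mrps18a was lost only without the 4 libraries of high receptor level (0.0572), among the 19 alternatives. The other rises were those of Mrpl52, Mrpl24, Mrpl12, Mrpl41, Mrps15, Mrpl54, Mrpl32 and Mrps23, with log2 fold changes between 0.51 and 0.66. Mrpl12 stood at 0.17 ± 0.16, 0.01 ± 0.16 and 0.12 ± 0.19 in wild type, Mysm1-/-Puma+/- and Puma-/-, and at 0.59 ± 0.15 in Mysm1-/-Puma-/- cells. The mitosis genes moved the same way in this genotype, with 7 of 24 called higher and a median of 0.47, against none and a median of -0.07 in wild type. In Mysm1-/-Puma+/- cells the mitosis gene Mki67 was also called higher, at 0.69 (adjusted p = 0.0251 by edgeR). Of 7 megakaryocyte marker genes, all were called higher in Mysm1-/-Puma-/- and 6 in wild type, with summed levels of 60.5 to 83.6 CPM in CD150- and 438 to 1022 CPM in CD150+ Mysm1-/-Puma-/- libraries. Of 6 erythroid genes, 3 were called higher and 1 lower in Mysm1-/-Puma-/-, among them Gata1 (4.05) and the erythropoietin receptor gene Epor (2.40), with summed levels of 12.7 to 21.1 CPM in CD150- and 41.0 to 139 CPM in CD150+ libraries. Of 10 myeloid genes, 4 were lower, among them Itgam (-1.61) and Csf1r (-2.57), with summed levels of 936 to 2378 CPM against 624 to 1077 CPM. Of 8 stromal genes, 3 were lower, among them Pdgfrb (-1.04) and Lepr (-1.47), with summed levels of 223 to 260 CPM against 115 to 144 CPM. In wild type 1 erythroid gene was higher, and 4 myeloid and 2 stromal genes were lower. Among the B-cell, T-cell and NK-cell genes, Sdc1 (-1.74) and Lck (-1.40) were called lower and Cd3g (2.63) higher in Mysm1-/-Puma-/-. The same genes were called in wild type, at -1.98, -1.50 and 3.27. The part of these lists was not tested.

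The 2 genes that fell were Mrpl27 and Mrpl9. Mrpl27 lay at 82.1, 65.2 and 56.5 CPM in CD150- and at a lowest, median and highest of 27.4, 41.3 and 58.8 CPM in CD150+ Mysm1-/-Puma-/- libraries, which overlap (-0.67 ± 0.18, adjusted p = 0.0122). Its exons overlap those of Eme1 on the other strand, which stood at 0.41 ± 0.20. Mrpl9, known from bacteria as a protein that helps hold the reading frame, lay at 93.2, 82.4 and 74.5 CPM against a lowest, median and highest of 51.2, 66.0 and 69.1 CPM, without overlap (-0.41 ± 0.11, 0.0148). Replicate B1, with the highest receptor level of the CD150- libraries, held the highest CPM of both in its group. Without it the count of calls in this genotype was 2 in place of 12, and without replicate B3 it was 7. The change of Mrpl27 was then -0.51 (adjusted p = 0.129) and -0.60 (0.0594), in a range of adjusted p from 0.00272 to 0.131 over all alternatives, the highest with a replicate block. The call of Mrpl9 was lost in 8 of 19 alternatives: with a replicate block (0.300) or the compared groups alone (0.0781), with the P and W libraries left out (0.174), without the 4 libraries of high receptor level (0.0935), and without CD150+ replicate P1 (0.0894) or CD150- replicate B1 (0.199), B3 (0.180) or B5 (0.0564).

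**Figure D5:**
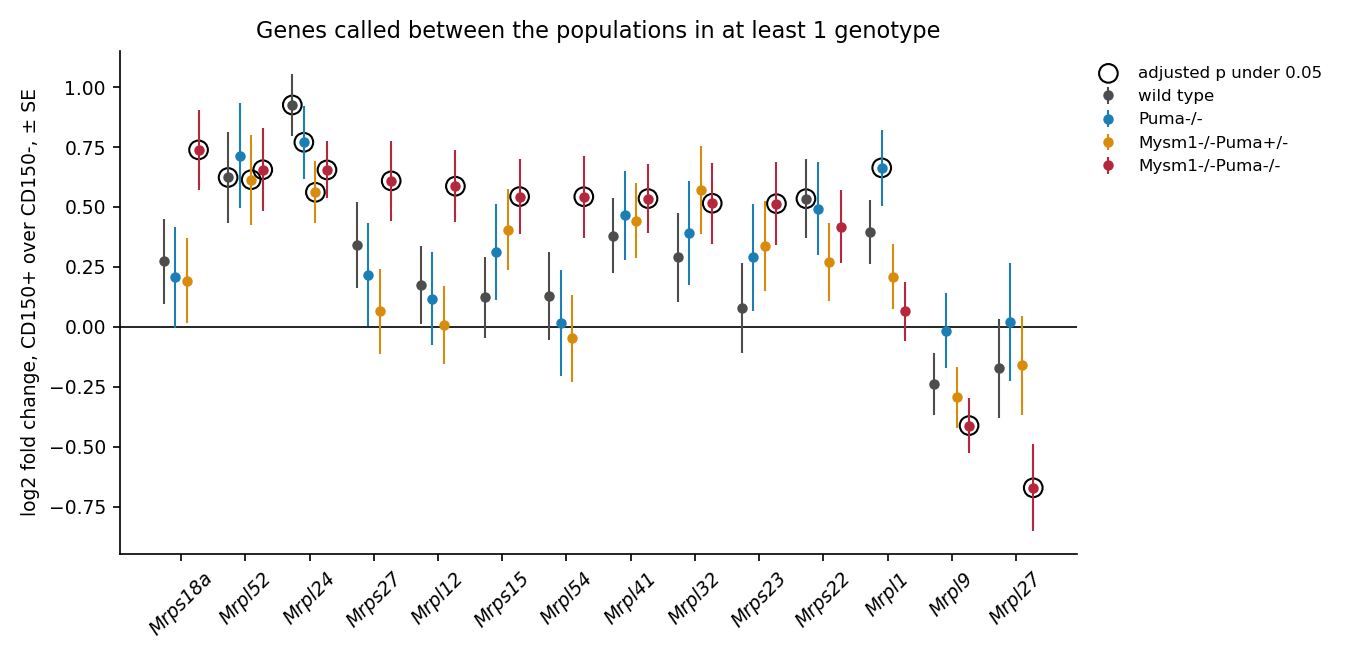
Log2 fold change ± SE of CD150+ over CD150- cells in each genotype for the 14 genes called in at least 1 of them, ordered by the value in Mysm1-/-Puma-/- cells; rings mark an adjusted p under 0.05. Mrpl24 is ringed in all 4 genotypes and Mrpl52 in 3, while most rings of the other genes belong to Mysm1-/-Puma-/- cells.

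Within a population, the levels of the 76 genes varied together more than those of genes in general, described here without a test. The mean pairwise correlation of log2(CPM + 1) was 0.22 among the 76 genes over 12 CD150- libraries and 0.20 over 17 CD150+ libraries, against 0.02 and 0.03 among all genes tested. It was 0.60 and 0.46 among cytosolic ribosomal protein genes and 0.51 and 0.35 among oxidative phosphorylation genes. These values share libraries, depth and scaling, and they include differences between genotypes. Of the 21168 CD150- and 20944 CD150+ genes tested, 11717 and 11758 average at least 2 on the log2 CPM scale, as all 76 do. The correlation among genes of like level was not computed. Small-subunit genes stood at 0.37 and large-subunit genes at 0.15 in CD150- cells, and at 0.15 and 0.24 in CD150+ cells. Across the 76 genes, shorter genes had the more negative change upon Puma loss in CD150- cells without Mysm1 (Pearson r = 0.32 and Spearman rho = 0.36 between log2 length and log2 fold change, over genes that share the same 6 libraries). These were the largest values in size of all the comparisons. The Pearson r was 0.25 for the same comparison in CD150+ cells. In CD150- cells against wild type it was 0.10 for Mysm1-/-Puma-/- and -0.24 for Mysm1-/-Puma+/-.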

How the data were processed

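RNA was measured in 29 libraries of 2 sorted populations and 4 genotypes. The authors deposited read counts per gene symbol for 23366 genes, and a matrix of normalised CPM for 12578 genes. The tools in the submitters' processing notes are FastQC, Trimmomatic 0.33, TopHat2 2.0.9, Bowtie 1.0.0, featureCounts, edgeR and R 3.4.2, with the build mm9. Libraries were stranded and depleted of ribosomal RNA, per the labels' protocols. The annotation, the strand setting of the counting and the handling of multiply aligned reads are not given in the sources used here, so reads of overlapping genes or near-identical copies may be misassigned. Exons of 26 of the 76 genes overlap another gene in the mm9 annotation.

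Deposited counts were tested with edgeR 4.0.16 (R 4.3.3, quasi-likelihood F test) after filterByExpr by group and TMM, with Benjamini-Hochberg adjustment over all genes and a threshold of 0.05. Genotypes were compared within a population (21168 genes in CD150-, 20944 in CD150+), with 1 estimate of the spread for all 4 genotypes. Populations and interactions were tested in a fit of all 29 libraries (21830 genes). Standard errors were approximated from the F statistic. Levels are TMM-scaled CPM from that fit, log levels have a pseudocount of 1, and CPM per kb uses the deposited length. Within groups, all 46 pairs of libraries differed by more than counting noise (lowest chi-square per degree of freedom 20.7). The code was tested on simulated counts.

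The genes and the lists were chosen with earlier results of these data known. Named genes are, per comparison, up to 4 rises and 4 falls of largest change (all where 5 or fewer were called), or the 2 of smallest p where none was called. Added to these are the 5 highest and 5 lowest by level, the 3 most and 3 least variable, the Mrps18 paralogues, Mrpl12, Mrpl41 and Mrps30. Others were chosen after their values were seen. Alternatives were DESeq2 1.42.0, its size factors in edgeR, no filter, limma-trend (limma 3.58.1) on log2 of the deposited CPM plus 1, the compared groups alone, a replicate block, the receptor level as a covariate, each library left out, and the P and W libraries left out. Leaving out the 4 libraries of high receptor level was added after seeing the data, and counts as leaving out B1 where the fit is the same. Promoters are RefSeq's, build GRCm38.p6.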

Additional observations from a re-analysis of the deposited data

Results flagged for a closer look

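In groups of 4 or 7 libraries, 102 sets of values of the 33 named genes and of their family mean were searched for a library far from the others, and 6 held one; chance gives about 1 in 20. In CD150+ Mysm1-/-Puma+/- cells, Mrpl46 lay at 16.4 CPM in replicate A4 and between 25.7 and 27.0 CPM in the other 3. In CD150+ wild-type cells, Mrpl24 lay at 69.7 CPM in replicate W1 against 55.3 to 56.1 CPM, Mrpl18 at 125 CPM in replicate D3-4 against 133 to 134 CPM, and Mrps18b at 32.2 CPM in replicate D3-4 against 23.3 to 24.7 CPM. In CD150+ Mysm1-/-Puma-/- cells, Mrps18c lay at 18.8 CPM in replicate P3 against 25.6 to 27.9 CPM, and Mrps36 at 18.9 CPM in replicate B5, a library of high receptor level, against 5.16 to 9.57 CPM.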

How the results depend on the processing

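Calls in Mysm1-/-Puma-/- against Mysm1-/-Puma+/- CD150- cells, 3 as reported, numbered 22 with DESeq2 and 0 with the receptor covariate and with the compared groups alone, and 0 to 18 with 1 library left out (median -0.59 to -0.33). Calls in Mysm1-/-Puma-/- against wild-type CD150- cells, 0 as reported, numbered 4 with DESeq2 or limma-trend, 2 with the covariate, 1 with the compared groups alone and 0 to 1 with 1 left out (median -0.39 to -0.14). Against Puma-/- the CD150- median was -0.35 to -0.11 with 1 left out, and the CD150+ median -0.12 without the 4 libraries of high receptor level and -0.080 to 0.11 with 1 left out. With 1 left out, the median for Puma-/- against wild type was -0.10 to 0.042 in CD150- and -0.15 to 0.037 in CD150+ cells, and for the Puma effect between populations 0.084 to 0.39.

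Calls between populations numbered, in wild type (3 as reported), 1 without the filter or the 4 libraries and 1 to 4 with 1 left out. In Mysm1-/-Puma+/- (2) they numbered 1 without the filter or the 4 libraries, 0 with the compared groups alone and 1 to 2 with 1 left out. In Mysm1-/-Puma-/- (12) they numbered 3 without the 4 libraries, 22 with limma-trend and 2 to 15 with 1 left out (median 0.22 to 0.43). In Puma-/- (2) they numbered 4 with DESeq2 or the covariate, 5 with limma-trend, 1 without the 4 libraries and 1 to 2 with 1 left out. Its median was 0.041 without the filter, 0.063 with the compared groups alone, 0.18 without the 4 libraries or with limma-trend, and 0.10 to 0.19 with 1 left out. The causes were not tested.

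Replicate numbers did not meet the rule for pairing, a correlation of deviations over 0.1 in every pair: it lay between -0.41 and 0.35 over 11 CD150- pairs, between -0.04 and 0.42 over 5 CD150+ pairs, and between -0.14 and 0.53 over 7 pairs of the same name in both populations, 4 of them over 0.1. Whether same-named CD150- and CD150+ libraries share an origin is not given in the labels and is not settled by these values. With a replicate block, calls in Mysm1-/-Puma-/- against Mysm1-/-Puma+/- CD150- cells numbered 0. Between populations the block was the library name, so only names found in both populations carry the comparison. In wild type that is D2 alone, a single pair, and this fit is still counted among the alternatives. In Mysm1-/-Puma+/- the names are A1, A2 and A3, with 1 call. In Mysm1-/-Puma-/- they are B1, B3 and B5, with 15 calls. Mrps27 (adjusted p = 0.072 by edgeR), Mrpl27 (0.131) and Mrpl9 (0.300) lost theirs there. The median for Puma-/- against wild-type CD150- cells was -0.12 with the block, and for Mysm1-/-Puma-/- against wild-type CD150+ cells 0.013. Of the alternatives of single named genes, 546 kept direction and side of the threshold, 75 lost the call, 8 gained one and 0 reversed. The 546 include genes not called as reported, which had no call to lose. All 75 losses fell on genes called as reported, so the total does not measure how stable the calls were. The lowest counts of the 76 genes were 57 to 284 per library, and most groups had 2 to 4 libraries; how far either number limits the calls was not tested.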
